A study of Drosophila melanogaster with 2 samples.

Results

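Transposable element insertions are the copies of mobile DNA that lie scattered through a genome. All features annotated as transposable elements on the assembled arms of Drosophila melanogaster were taken, in the dm6 build, and an insertion was called marked when the summit of a peak, the position of its strongest signal, lay inside it. There were 5889 such insertions among 23836 annotated genes and elements on the arms. They belong to 155 families by the name before the braces, and 62 families have at least 20 copies. Insertion lengths had a median of 373 bp, and together they cover 5.91% of the bases of the arms.

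Most elements in the fly genome belong to a few classes. Retrotransposons move through an RNA copy, either with long terminal repeats (LTR elements such as roo and 297) or without them (non-LTR elements such as jockey, Cr1a and baggins), whereas DNA transposons such as 1360 and mariner2 move as DNA. INE-1, also called DINE-1, is related to the Helitrons, codes for no protein of its own, and is known as short, old and mutated copies that lie in introns and beside genes as well as in heterochromatin. Young copies of a family are nearly identical, so a short sequencing read from one of them fits many places.

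DNA bound by the protein was sequenced after chromatin immunoprecipitation (ChIP-seq) with an anti-GFP antibody on whole embryos aged 0 to 24 h of a transgenic line that expresses tna fused to eGFP. The gene tna (tonalli) encodes a protein with an SP-RING, the domain of a class of SUMO ligases, and it is known for its genetic interaction with the Brahma chromatin-remodelling complex. The 2 samples, replicates 1 and 2, are labelled as biological and form 1 group, which pools all tissues and stages of the embryo, so there is no comparison between conditions, and the regulatory sequences that drive the fusion are not named in the labels. No control library was analysed here, and the insertions are those of the reference genome; which of them the tagged line carries was not analysed here.

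The peaks deposited for both replicates together form a conservative list, with 2580 peaks on the arms, and an optimal list with 3500. The single lists hold 2214 peaks on the arms for replicate 1 and 2669 for replicate 2. Library depth is unknown. The authors' signal of a peak was compared only within a list.

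Sequences under some of the marked insertions are given here. The strongest marked copy of each family is shown where it lies outside exons, with 5 further marked INE-1 copies, picked after their values were seen so that most arms and an inexact match are represented, and 3 INE-1 copies with an exact core that no list marks. The 3 were taken, 1 per arm, as the nearest in length to 108 bp, the median of marked copies with an exact core, in unique sequence outside exons. Each is 101 bases, 5′ to 3′ on the annotated strand of the element. Marked copies are centred on the summit, and copies without a peak are centred on the core. Capitals mark the 11-base core that was the most frequent 11-mer within 50 bp of summits in INE-1, GGTATCTGATA. The 4 marked INE-1 copies with no core, exact or with 1 mismatch, are not among those shown. The bases are from the RefSeq sequence of dm6.
INE-1{}2285, chr3R:24279379-24279479, minus strand, exact core: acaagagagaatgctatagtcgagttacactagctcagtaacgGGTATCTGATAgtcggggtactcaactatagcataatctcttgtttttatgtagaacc
INE-1{}3545, chrX:15841532-15841632, plus strand, exact core: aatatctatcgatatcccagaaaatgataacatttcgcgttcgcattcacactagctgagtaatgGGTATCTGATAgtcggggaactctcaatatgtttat
INE-1{}6186, chr2L:10033602-10033702, plus strand, exact core: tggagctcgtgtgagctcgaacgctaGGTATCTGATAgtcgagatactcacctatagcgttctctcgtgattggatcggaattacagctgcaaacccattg
INE-1{}4628, chr3L:18743057-18743157, plus strand, exact core: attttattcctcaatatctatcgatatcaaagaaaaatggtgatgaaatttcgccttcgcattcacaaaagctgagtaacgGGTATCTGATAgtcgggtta
INE-1{}3309, chr4:980628-980728, plus strand, exact core: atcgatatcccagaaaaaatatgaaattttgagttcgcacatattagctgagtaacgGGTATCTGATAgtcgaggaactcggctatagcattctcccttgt
INE-1{}5717, chr3R:16655791-16655891, plus strand, core with 1 mismatch: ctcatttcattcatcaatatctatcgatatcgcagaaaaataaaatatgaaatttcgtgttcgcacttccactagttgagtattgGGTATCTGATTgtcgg
mariner2{}1523, chr4:647664-647764, plus strand, no core: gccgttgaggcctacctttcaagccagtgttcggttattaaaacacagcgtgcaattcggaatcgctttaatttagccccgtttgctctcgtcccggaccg
INE-1{}4267, chrX:17866563-17866663, minus strand, exact core, no peak: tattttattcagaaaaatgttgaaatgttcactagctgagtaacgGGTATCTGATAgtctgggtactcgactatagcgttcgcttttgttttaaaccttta
INE-1{}3479, chr2L:17941311-17941411, minus strand, exact core, no peak: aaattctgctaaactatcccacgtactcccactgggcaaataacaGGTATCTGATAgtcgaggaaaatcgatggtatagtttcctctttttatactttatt
INE-1{}6007, chr4:554546-554646, plus strand, exact core, no peak: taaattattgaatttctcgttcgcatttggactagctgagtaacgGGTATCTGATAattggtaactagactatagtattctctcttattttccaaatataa

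Of the 5889 insertions, 38 held a summit of the conservative list (0.645%; 95% exact interval, 0.457% to 0.885%), and all but 2 of the 38 were INE-1 copies. The share among all annotated genes and elements on the arms was 5.61%. Had the summits been shifted along each arm by every possible distance, the mean number of marked insertions would have been 142. The 38 summits were 1.47% of the 2580 (1.04% to 2.02%), against a mean of 5.93% over all shifts. Intervals here cover counting error only.

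INE-1 and the other families lay on opposite sides of that mean. Of 2235 INE-1 insertions 36 were marked (1.61%; 1.13% to 2.22%), where the mean over all shifts was 9.51, so the count was 3.78 times the mean. Of the 3654 insertions of all other families 2 were marked (0.0547%; 0.00663% to 0.198%), where the mean over all shifts was 133.

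Each of the other lists gave the same order. The optimal list marked 49 INE-1 insertions (mean over shifts 12.8) and 3 of other families (173), 52 in all or 0.883% of insertions, beside 7.87% of all genes and elements. The replicate 1 list marked 54 INE-1 insertions (8.11) and 0 of other families (114), or 0.917% of insertions, beside 4.61% of all genes and elements. The replicate 2 list marked 18 INE-1 insertions (10.3) and 2 of other families (137), or 0.340% of insertions, beside 6.30% of all genes and elements. INE-1 counts were above the mean in all 4 lists and counts of other families below it in all 4. The conservative and optimal lists were made from both replicates, so the 4 lists share reads and are not separate observations. The single lists differed in how far the INE-1 count exceeded the mean, at 6.66 times the mean in replicate 1 and 1.75 times in replicate 2.

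**Figure D1:**
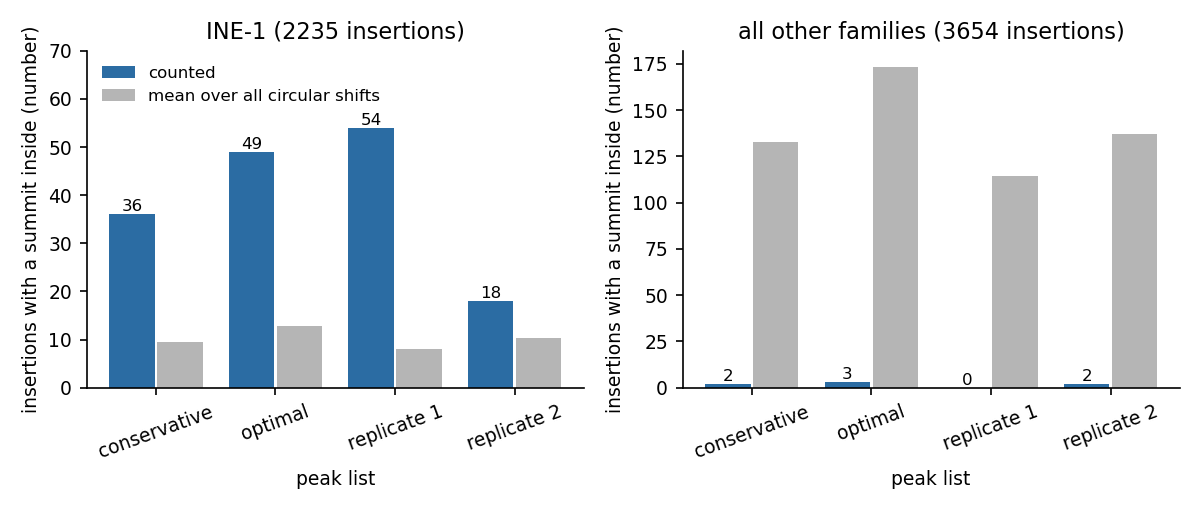
Number of insertions with a summit inside (blue, with the count above each bar) and the mean number over all circular shifts of the summits (grey), for INE-1 on the left and all other families on the right; the vertical scales differ. In each list the INE-1 count is above the grey bar, at 36, 49, 54 and 18, and the count of other families is at most 3.

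By class, 0 of 1451 LTR insertions, 1 of 1110 non-LTR insertions and 1 of 1034 DNA transposon insertions were marked in the conservative list. The means over all shifts were 80.4, 33.5 and 15.8. Another 59 insertions of families not assigned to a class had no summit. Of the 62 families with at least 20 copies, 59 had no marked copy. The most numerous of these were 1360 (493 copies, mean over shifts 6.43), Cr1a (152 copies, 3.84), roo (144 copies, 15.5), jockey (96 copies, 2.53) and 297 (89 copies, 5.65). By counting error alone, a count of 0 allows a marked share of up to 0.609% in 1360 and up to 2.08% in roo. Median shares of unique sequence, measured as below, were 25.4% in 1360, 85.7% in Cr1a, 0.787% in roo, 4.29% in jockey and 1.71% in 297. A copy in repeated sequence can lack a peak whatever is bound there, so these limits do not bound the share of bound copies.

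The families with a marked copy beside INE-1 were baggins and mariner2, with 1 copy each. The baggins{}3517 copy, 172 bp on 3R, was 1 of 36. Its summit lay 184 bp downstream of a start of CG2217, in an exon. Its signal was 136 in the conservative list, 54.6 in replicate 1, where it missed the thresholded list, and 88.4 in replicate 2. The mariner2{}1523 copy, 756 bp on chromosome 4, was 1 of 23. It lay between genes, 1158 bp upstream of a start of Ekar, a kainate-type glutamate receptor gene, and its signal was 132, with 48.2 in replicate 1 (not listed) and 81.0 in replicate 2. Both were therefore marked in replicate 2 and not in replicate 1. The optimal list added 1 copy of the LTR element Quasimodo, of 41.

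Marked INE-1 copies mostly held the core. It lay within 50 bp of 24 of the 36 INE-1 summits on the element strand; the choice of these letters used the same summits, so this count is a description. Of the 2235 INE-1 copies, 521 held an exact core, 384 held it with 1 mismatch and 1330 held neither. The marked counts were 26 (4.99%; 3.29% to 7.23%), 6 (1.56%; 0.576% to 3.37%) and 4 (0.301%; 0.0820% to 0.768%). The means over all shifts for these groups were 2.53, 1.88 and 5.10, so the copies without a core stood at about the level of shifted summits. The groups rest on letters picked from these same summits, so that choice set part of the difference between them. In the single lists, which were not used to pick the letters but share reads with the list that was, exact copies were marked 39 times in replicate 1 and 14 times in replicate 2, and copies without a core 7 times and 0 times.

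**Figure D2:**
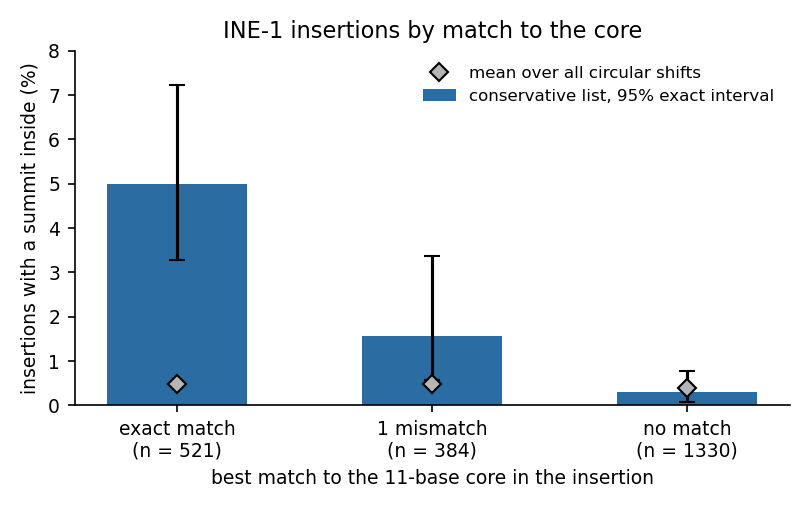
Share of INE-1 insertions with a conservative summit inside (bars, with 95% exact intervals for counting error) by their best match to the 11-base core, and the mean share over all circular shifts (diamonds). The bar falls from 4.99% with an exact core to 1.56% with 1 mismatch and 0.301% with neither, where the interval covers the diamond. The core was picked within 50 bp of the same conservative summits, so the order of the bars is partly set by that choice.

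Most copies with the core held no summit. Of the 905 copies with an exact or 1-mismatch core, 32 (3.54%) were marked, and none of the 119 insertions of other families with such a match was. The share was 5.61% in copies under 100 bp (17 of 303), 2.60% in copies from 100 bp to under 200 bp (4 of 154) and 2.46% in longer copies (11 of 448), with intervals that overlap. It was 5.26% within 500 bp of a gene start (7 of 133) and 3.24% farther away (25 of 772). Where elements cover at least 10% of the surrounding 100 kb, 12 of 494 were marked (2.43%), and elsewhere 20 of 411 (4.87%). The INE-1{}4267, INE-1{}3479 and INE-1{}6007 copies shown above carry the exact core in unique sequence, and none of them had a summit within 100 bp in any list.

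The core and most INE-1 summits lay toward the 3′ end of the element. In the 902 copies with a core on the element strand, the core lay a median of 37 bases from the 3′ end, within 60 bases in 899. Summits lay in the 3′-most part of the element, when it is cut in 3 equal parts, in 22 of the 36 marked INE-1 copies, in the middle part in 9 and in the 5′-most part in 5. In all 11 marked copies of at least 200 bp the summit lay in the 3′-most part. For the 32 summits within 100 bp of a core, the offset from the core centre had a median of −3 bases and quartiles of −18 and 9. The core was picked within 50 bp of the INE-1 summits of this list, so that choice set part of this closeness. The medians were −4 in replicate 1 (47 summits) and 0.5 in replicate 2 (18 summits).

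**Figure D3:**
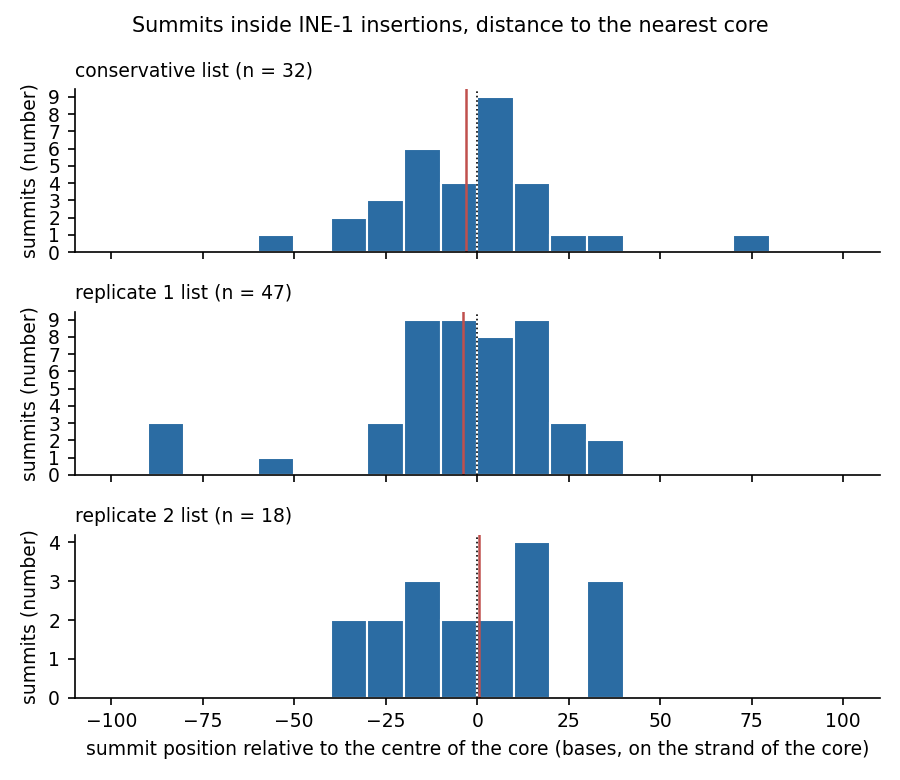
Number of summits inside INE-1 insertions by position relative to the centre of the nearest core, in bins of 10 bases on the strand of the core, for the conservative, replicate 1 and replicate 2 lists. The red line is the median, at −3, −4 and 0.5 bases, and the dotted line is the core centre. The core was picked within 50 bp of the conservative summits, so small offsets are partly set by that choice.

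The marked copies were short, and the peaks reached past them. Their lengths ran from 31 to 1181 bp, with a median of 87.5 bp in INE-1, against 147 bp in unmarked INE-1 copies. The median peak was 410 bp wide, and the element made up a median of 32.4% of it. A peak with its summit inside an insertion thus often spanned mostly sequence beside it. The share of the peak made up by the element had an upper quartile of 61.3% and reached 95.9%.

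Far from gene starts, INE-1 sequence held more summits per length than the rest of the genome. Beyond 500 bp from a start, INE-1 held 30 summits in 0.500 Mb, or 60.04 per Mb, against 332 summits or 2.98 per Mb outside elements and 1 summit or 0.134 per Mb in other families. Within 500 bp of a start the conservative list held 123 per Mb in INE-1, from 6 summits, and 124 per Mb outside elements, from 2210. There the replicate 1 list held 245 per Mb in INE-1, from 12 summits, against 107, and the replicate 2 list 123, from 6, against 127. Farther from starts, replicate 1 gave 84.1 per Mb in distant INE-1 sequence against 2.29 outside elements, and replicate 2 gave 26.0 against 3.34.

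**Figure D4:**
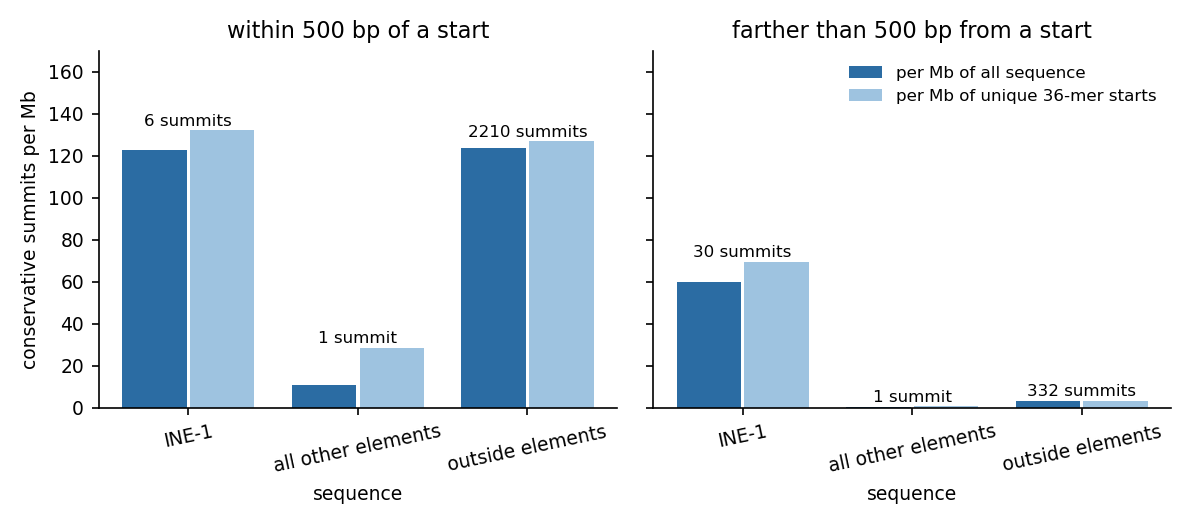
Conservative summits per Mb in INE-1, in all other elements and outside elements, within 500 bp of a gene start (left) and farther away (right), per Mb of all sequence (dark) and per Mb of positions where a unique 36-mer starts (light). Near starts INE-1 is at 123 and sequence outside elements at 124 per Mb; far from starts INE-1 is at 60.04 and sequence outside elements at 2.98.

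Within 500 bp of a gene start lay 7 of the 38 summits inside insertions (18.4%), against 2210 of the 2542 other summits (86.9%). The distance to the nearest start had a median of 2236.5 bp and reached 16663 bp. Of the 38 summits, 19 lay in introns, 15 between genes and 4 in exons. The shares that follow place the insertion rather than the summit, and by that measure 3 of the 38 lay in exons. Among unmarked INE-1 insertions, 49.9% lay in introns, 44.7% between genes and 5.41% in exons. For marked INE-1 insertions these shares were 52.8%, 41.7% and 5.56%, so in these 3 shares the marked copies resembled the family. Measured from the insertion, 7 of the 36 marked INE-1 copies lay within 500 bp of a start (19.4%). Among unmarked INE-1 copies 296 of 2199 did (13.5%). The median distance from insertion to start was 2201.5 bp in marked and 3078 bp in unmarked INE-1 copies, and this difference was not tested.

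The strongest peak in an insertion was at INE-1{}2285, 66 bp on 3R, 143 bp upstream of a start of shps. Its signal of 678 ranked 45th in the conservative list, and it was 334 in replicate 1 (rank 69) and 354 in replicate 2 (rank 31). The next, INE-1{}3545 on X, lay between genes 2563 bp from a start of ArgRS, the arginyl-tRNA synthetase gene, with a signal of 611 (rank 66), 375 in replicate 1 (rank 43) and 234 in replicate 2 (rank 149). The third was INE-1{}3048, 45 bp in an intron of Dscam1, which encodes a cell-surface receptor of neurons with very many splice forms. Its signal was 554, with 296 in replicate 1 and 242 in replicate 2. All of these were marked in both single lists.

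Among the 30 insertions of highest signal, several more lay in introns. INE-1{}6186, 40 bp in an intron of obst-B, a chitin-binding protein gene, had a signal of 450, 278 in replicate 1 and 171 in replicate 2. INE-1{}4043 in kibra, a regulator of the Hippo pathway, had 299.8, 157 and 121. INE-1{}4480 in Roc2, a RING component of cullin ubiquitin ligases, had 286, 197 and 113. INE-1{}6125 in CG42748 had 321, 164 and 156, with similar ranks of 505 and 420 in the replicates.

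Weaker intronic peaks were in INE-1{}4343 where CG13229 and shn overlap, INE-1{}4738 in CG2201, INE-1{}4876 in l(3)05822, INE-1{}5012 in Qsox1, INE-1{}4211 in baz, INE-1{}2223 in CG8671, INE-1{}2086 in gus and INE-1{}1743 in bin3. Here shn encodes a zinc-finger protein of Dpp signalling and baz the polarity protein Bazooka. Their conservative signals ran from 134 to 178. Of these only INE-1{}4738 and INE-1{}4876 had a peak in both thresholded single lists, and for each of the others replicate 1 alone listed it.

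Between genes or in exons, INE-1{}5657 lay in an exon of the cytochrome P450 gene Cyp6a22, 66 bp from its start, with a signal of 397, 227 in replicate 1 and 190 in replicate 2. INE-1{}4982 lay 686 bp upstream of ed, the cell-adhesion gene echinoid, with 394, 229 and 167. INE-1{}5810 (382) was nearest to gzl, INE-1{}1748 (338) to Pld, the phospholipase D gene, INE-1{}3531 (306) to CG8119 and INE-1{}5717 (276) to modSP, a serine protease gene upstream of the Toll pathway. INE-1{}4555 (275) was nearest to Ugt37C1, INE-1{}4628 (216) to CG6885, INE-1{}3591 (198) to CG13955, INE-1{}2002 (167) to GCS2alpha, INE-1{}3799 (165) to CG9853, INE-1{}3309 (149.9) to fuss, INE-1{}4899 (145) to CG43133 and INE-1{}5963 (143) to rgn. The nearest start is named as position alone.

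Within a list, median signals inside and outside insertions were close. The 38 conservative peaks inside insertions had a median signal of 167 with quartiles of 135 and 304, and the 2542 others had a median of 169 with quartiles of 124 and 257. The ratio of medians was 0.992 in the conservative list, 1.03 in the optimal list, 0.885 in replicate 1 and 1.06 in replicate 2. In the ranked list that pairs both replicates, INE-1 held 10 of the strongest 500 summits (2%) and 15 of those ranked 1001 to 2000 (1.5%), but 119 of the 64422 weakest (0.185%). Other families showed the reverse, with 0 of the strongest 500 and 0.413% of the weakest.

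The replicates differed in how many insertions they marked. Of 54 marked in replicate 1 and 20 in replicate 2, 14 were marked in both, 25.9% of the first and 70% of the second, and all 14 were INE-1. One of them, INE-1{}5812 on 3R (signal 117 in replicate 1 and 72.8 in replicate 2), was marked in neither list made from both replicates. Of the 38 conservative peaks inside insertions, 33 were also in the replicate 1 list, 25 in the replicate 2 list and 20 in both. Among the 2542 other conservative peaks, replicate 1 listed 1645 and replicate 2 listed 1741. Replicate 2 thus listed more of the other peaks, while replicate 1 listed more of those inside insertions. Of the 37 peaks inside insertions that were ranked in both, 30 ranked higher in replicate 1 than in replicate 2 (81.1%). Elsewhere 1123 of 2205 conservative peaks did (50.9%).

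**Figure D5:**
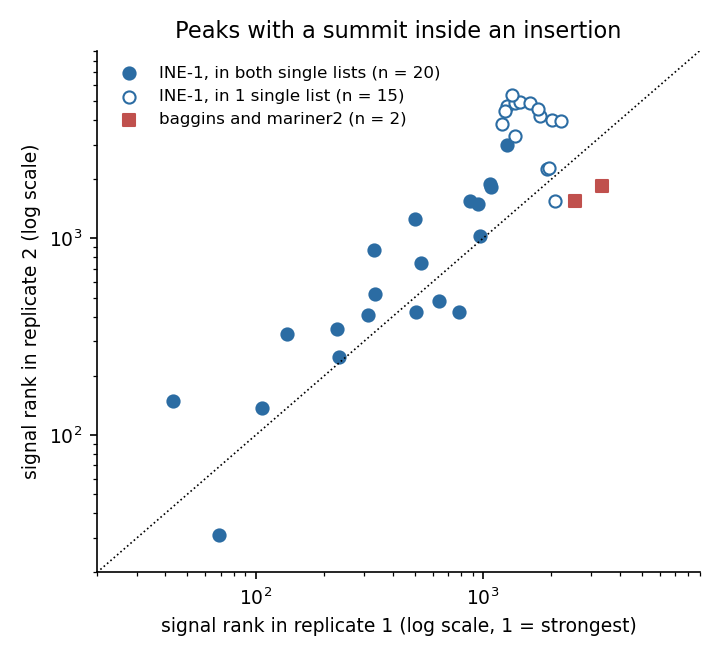
Rank by signal in replicate 1 (horizontal) and replicate 2 (vertical) of 37 conservative peaks with a summit inside an insertion, on log scales with 1 the strongest; the dotted line marks equal ranks. Filled circles are INE-1 peaks in both thresholded single lists (20), open circles INE-1 peaks in 1 of them, and squares baggins and mariner2; 30 of the 37 points lie above the line.

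By arm, the marked INE-1 copies were 6 of 399 on 2L, 13 of 500 on 2R, 3 of 392 on 3L, 6 of 239 on 3R, 1 of 344 on 4 and 7 of 361 on X. The means over all shifts were 1.63, 2.80, 1.68, 0.739, 0.929 and 1.74, so the count was above the mean on each of these arms, by less than 1 copy on 4. No INE-1 insertion is annotated on Y, whose 80 insertions of other families held no summit in a list with 0 peaks on Y. In other families 0 of 554 were marked on 2L, 0 of 985 on 2R, 0 of 770 on 3L and 0 of 551 on X, where the means were 21.3, 40.4, 27.5 and 21.4.

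Near-identical copies share reads, and the share of unique sequence differed widely between families. The median share of 36-mers that occur a single time in the assembly was 100% in INE-1 insertions, 7.96% in LTR, 45.6% in non-LTR and 40.9% in DNA transposon insertions. Within 100 bp of the 38 summits, the median was 100% and the lowest value 59.6%, at INE-1{}4738. How reads that fit several places were treated is not given in the sources used here, so a copy in repeated sequence can lack a peak whatever is bound there.

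Among insertions with at least 80% unique 36-mers around their middle, INE-1 had 34 of 2087 marked (1.63%; mean over shifts 8.08) and other families 2 of 1239 (0.161%; mean 14.5). Limited to those under 500 bp, INE-1 had 33 of 1923 marked (mean 5.99) and other families 1 of 821 (mean 2.75). Among those that also lay within 500 bp of a start, INE-1 had 7 of 262 marked (2.67%; mean 0.874) and other families 1 of 87 (1.15%; 0.0291% to 6.24%; mean 0.273), so at this size both counts were above the mean and the interval of the other families covers the INE-1 share. Per Mb of positions where a unique 36-mer starts, INE-1 held 75.5 summits, other families 1.498 and sequence outside elements 21.9.

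Known motifs were no more frequent at summits in insertions than at other summits, apart from a TATA box share of nearly the same size. The 2 sets of summits differ in place, with 18.4% in insertions and 86.9% of the others within 500 bp of a start. The motif shares were not split by this distance. The DNA replication-related element, TATCGATA on either strand, lay within 100 bp of 7 of the 38 (18.4%; 7.74% to 34.3%), of 596 of the 2542 other summits (23.4%) and of the middle of 210 of the 2235 INE-1 insertions (9.40%). CGATA, which that element contains, was at 16 (42.1%), 65.3% and 39.8%. The TATA box, TATAAA, was at 8 (21.1%), 19.9% and 48.99%, and GCCAT, the core bound by Pho, at 9 (23.7%), 32.4% and 24.7%. The Motif 1 string GGTCACAC, GAGAGAG and the Zelda string CAGGTAG were at 0 of the 38, and the E-boxes CACGTG and CAGCTG at 1 each. Within 200 bp, TATAAA (52.6% against 42.3%) and CAGGTAG (2.63%, from 1 summit, against 1.93%) were more frequent in insertions than at other summits. Each of the other known motifs was less frequent there. The INE-1 core lay within 100 bp of 26 of the 38 (68.4%; 51.3% to 82.5%), of 21 of the 2542 other summits (0.826%) and of the middle of 302 INE-1 insertions (13.5%). Unlike the motifs above, the core was picked from the INE-1 summits, so its share among the 38 is a description. Anywhere in the insertion, 521 of the 2235 INE-1 copies held it exactly (23.3%).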

How the data were processed

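ChIP-seq peak lists from 2 biological replicates were used. The authors deposited thresholded and ranked lists on dm6, derived from filtered alignments per the file headers and notes. The deposited signal is the caller's own value, and −log10 columns, as deposited, hold q-values in thresholded lists and the global irreproducible discovery rate (IDR) in ranked lists. Aligner and peak caller: not given in the sources used here. Each thresholded list lies within its ranked list at an IDR of at most 0.01. Depth is unknown.

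Insertions and starts came from Ensembl release 115, and bases from RefSeq, in the same coordinates, on 7 arms. Starts of elements and pseudogenes were left out. The mean over all circular shifts was computed exactly from gaps between summits, with no p-value, since insertions are not replicates and 1 group allows no test. Unique 36-mers were counted on both strands over the whole assembly. Shares have exact (Clopper-Pearson) 95% intervals, and the limit for 0 is 3 counts. Family classes were assigned by hand. Named were the 30 marked insertions of highest signal, those in both single lists, families with a marked copy and the 5 most numerous without, with the nearest start and host gene. The marked baggins copy lay in an exon, and its bases are not printed. The core and its counts were chosen after seeing the data. Members and lists were chosen with earlier results of these data known. Python 3.11.15, NumPy 2.4.6, SciPy 1.17.1, pandas 2.3.3 and matplotlib 3.10.9 were used, and the expectation, k-mer count and core search were tested on simulated data.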

Additional observations from a re-analysis of the deposited data

How the results depend on the processing

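The 38 marked insertions became 18 at an IDR of 0.001, 75 when 1 bp of peak overlap sufficed, 12 when at least 50% of the peak had to lie in the insertion, 12 among insertions of at least 200 bp and 1 among those of at least 1000 bp. They were 52 in the optimal list, 55 at an IDR of 0.05, 26 at a q-value of 0.05, and 38 with nested insertions left out or, per pair of replicate peaks, 1 peak kept. Leaving out replicates in turn gave 20 to 54 insertions, 18 to 54 INE-1 copies, 0 to 2 copies of other families and 0.787% to 2.44% of summits; the lower INE-1 and summit values are those without replicate 1. The summit share was 0.465% under the 50% rule and 1.58% with 1 peak per pair, added after seeing the data. Motif shares moved with the window: at 50 and 200 bp CGATA was at 21.1% and 60.5%, GCCAT at 10.5% and 42.1%, TATAAA at 5.26% and 52.6%, and CACGTG at 0% with 50 bp. Wider windows hold more sequence; the cause of the other changes was not tested. The share of summits within reach of a start was 18.4% at 500 bp, 10.5% at 250 bp and 34.2% at 1000 bp. The lowest share of unique k-mers around a summit, 59.6% for 36-mers, was 88.8% for 50-mers and 100% for 100-mers, while the median, at its ceiling of 100%, can show no rise. The signal ratio ran from 0.885 to 1.06 over the lists, and 68.4% of summits were nearer the 3′ end in bp, beside 60.5% in the 3′-most part. No paired analysis was possible because there is 1 group and no test. With 2 replicates of unknown depth, a summit missing from a list is not evidence of no binding.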

Other observations

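The core also occurs outside annotated elements, where 386 exact matches lie on the arms. Of these, 14 had a conservative summit within 100 bp (3.63%), against a mean of 0.386% over all circular shifts, and 20 had one in replicate 1 (5.18%; mean 0.324%) and 8 in replicate 2 (2.07%; mean 0.406%). Inside INE-1, 34 of 521 had a summit within 100 bp (6.53%; mean 0.370%). Summits outside elements were not used to choose the core, although the idea to look there came from the same data.

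Each match was also scored by how many of the 20 bases to each side, 40 in all, equal the most common base of exact matches in INE-1. Matches in INE-1 had a median of 31 of 40. Those outside elements had a median of 24, and the 14 with a summit had a median of 17.5 with a highest value of 31. Among matches outside elements with at most 19 of the 40 bases, 9 of 142 had a conservative summit (6.34%; exact interval 2.94% to 11.7%). The single lists gave 13 of the same 142 matches in replicate 1 and 5 in replicate 2. The share was 3.45% at 20 to 29 bases (4 of 116) and 2.27% at 30 to 34 (1 of 44). Among those with 35 or more, 0 of 84 did (up to 3 counts, or 3.57%). Within INE-1 the share was 12.5% at up to 19 bases (3 of 24; 2.66% to 32.4%), 6.76% at 20 to 29 bases (14 of 207), 6.11% at 30 to 34 (8 of 131) and 5.66% at 35 or more (9 of 159). In the conservative list the shares were lower at higher likeness inside INE-1 and outside elements, untested, and the intervals within INE-1 overlap. In replicate 1 the INE-1 counts were 6 of 24, 23 of 207, 10 of 131 and 12 of 159, and in replicate 2 they were 1, 10, 4 and 9.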
